A study of Mus musculus with 9 samples.

Results

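The data compared subcutaneous fat of C57BL/6 mice labelled Hete KO, heterozygous for a knockout of AGO1 in endothelial cells, with the same depot of mice labelled WT. All animals were 24 weeks old, and each group had 3 libraries, so 6 of the 9 libraries of the series entered the comparison. The other 3, labelled Homo KO, come from mice with the knockout on both alleles and served for the estimate of the spread and as a side value. The series' design text names a metabolic phenotype of the knockout mice as the reason for the experiment. Whole tissue was sequenced after freezing and Trizol extraction, so endothelial transcripts were read together with those of adipocytes, progenitors, macrophages and every other cell of the depot. In such bulk samples fewer cells of a type and less RNA per cell cannot be told apart. The promoter or Cre line that limits the knockout to endothelial cells, any allele shared by the groups, the sex and the litter of each animal are not stated in the labels. The labels number the libraries within a group and do not state that each is a different animal, so the p-values measure the spread between these libraries.

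Argonaute proteins hold microRNAs and guide them to messenger RNAs, which are then translated less or degraded sooner. AGO1 is one of the Argonautes of mammals. Endothelial cells line the capillaries of fat, pass fatty acids and hormones to adipocytes, and share a basement membrane with them. Subcutaneous fat also holds fibroblast-like progenitors, which make most of the collagen and give rise to adipocytes, and macrophages, which clear debris and take up iron and lipid.

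Levels below are CPM, counts scaled to the same library total after normalization for library composition. A fold change is the log2 of Hete KO over WT, with its standard error (SE), and the adjusted p is that of edgeR's quasi-likelihood test after Benjamini-Hochberg adjustment over all 17968 genes tested. A gene is said to have risen or fallen where that adjusted p was under 0.05. Where 3 values follow each other they belong to libraries 1, 2 and 3 of a group. Genes were named by a rule given with the processing, and those outside it, which are Ago3, Adamts7, Plau, Lamb3, Trem2, Itgax, Adgre1, Mertk, Grn, Hexa, Mcoln2, Srxn1, F10, Slc25a13, Spdl1, Kntc1, Mki67, Top2a, Tyms, Birc5, Epgn, Sema3e, Chdh and Olfr541, were chosen after their values were seen. Of the 75 called genes 16 have a span, introns included, that overlaps another tested gene, some on the opposite strand and some only on the same strand. Their counts may be less certain. For those on the opposite strand this depends on whether the counting used strand, which is not stated. A gene said not to have passed did not pass this edgeR test, and some such genes passed under an alternative.

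The libraries held between 20894437 and 28252001 estimated counts. The share of 18 skeletal muscle genes was 3.26, 2.56 and 0.0187% in WT libraries 1 to 3 and 0.395, 7.71 and 0.0940% in those of Hete KO. The share of 24 liver genes was 0.251% in WT 2, 0.263% in WT 3 and between 0.0675 and 0.0991% in the other 4. Alb, which encodes serum albumin of the liver, stood at 633 and 609 CPM in WT 2 and WT 3 and at 6.43 CPM in WT 1. Both kinds of transcript therefore differed between libraries of 1 group. The fat itself was plain in every library, with the 19 adipocyte markers tested taking 2.35 to 3.22% of the counts and the 25 endothelial markers 0.171 to 0.252%. Y-linked Ddx3y was read in all 9 libraries, at 95.0 to 146 CPM.

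Ago1, the targeted gene (chromosome 4, 126435012 to 126468583, minus strand, mm10 as all coordinates here), had 69.9, 63.8 and 63.4 CPM in WT, 51.2, 59.7 and 60.1 CPM in Hete KO and 62.2, 58.6 and 25.8 CPM in Homo KO. Which exons the knockout removes is not stated in the labels, and the tissue holds many cells outside the knockout, so these levels are a weak check of the labels. Every Hete KO library lay under every WT library, as was so for 12.1% of all genes. The margin was small for WT 3 and Hete KO 3. This is a log2 fold change of -0.21 (SE 0.264, edgeR adjusted p = 0.699). An exact two-sided permutation test of the means gave p = 0.1, the smallest that 3 libraries against 3 allow. Any gene without overlap reaches that value, so it adds nothing to the lack of overlap. Ago2, the Argonaute that can cut its target, had a log2 fold change of -0.19, and Ago3 and Ago4 had 0.18 and -0.24. Of 19 genes of the microRNA pathway, from Drosha and Dicer1 to the TNRC6 proteins that recruit the decay machinery, none passed the test, and their median was 0.10 against 0.02 over all genes. That median turned to -0.01 without the libraries rich in liver transcripts, where WT 1 alone stands for WT.

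Over all genes 75 of 17968 passed the test in Hete KO against WT, which is 0.417%. Of them 27 had risen (0.15% of all genes) and 48 had fallen (0.267%). The log2 fold changes of those that rose lay between 0.59 and 6.05 with a median of 1.10, and those of the genes that fell between -0.66 and -4.85 with a median of -1.16. In all 75 the 3 Hete KO libraries did not overlap the 3 WT libraries, as was so for 24.7% of all genes. An unadjusted p under 0.05 was found for 3927 genes (21.9%). The adjusted p-values of the 75 lay between 0.0191 and 0.0490, and the genes next to the threshold were Dpp4 (0.0490) inside, and Mipol1 (0.0514), Slc1a3 and Lcn2 (both 0.0526) outside.

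**Figure D1:**
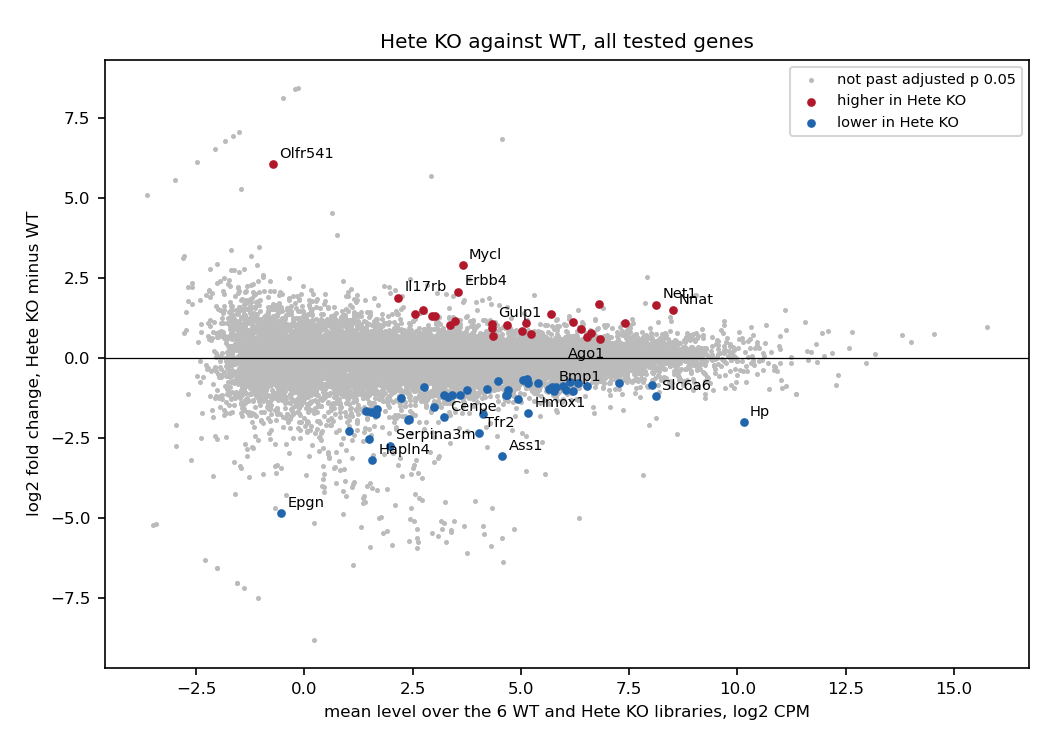
Each point is 1 of 17968 tested genes, with its mean level over the 6 WT and Hete KO libraries on the horizontal axis (log2 CPM) and its log2 fold change, Hete KO minus WT, on the vertical axis. The 27 genes that rose are red and the 48 that fell are blue; many grey points at low levels lie farther from 0 than the called genes do.

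The number of calls rested on the fit. All 75 genes kept their sign under each of 20 alternatives in which they were tested. They were chosen by the same contrast, and in all 75 the groups did not overlap. A change of sign was therefore hardly possible, and the kept signs are no test of the directions. Fitting only the 6 libraries compared left 0 calls, with 3172 genes at an unadjusted p under 0.05, and DESeq2 gave 1674 calls of 15814 genes (10.6%), which hold 73 of the 75. With upper-quartile factors 25 were higher and 25 lower, a more even split than 27 and 48. Leaving out WT 2 gave 0 higher and 1 lower, Hete KO 2 likewise 0 and 1, and Hete KO 3 0 and 0, whereas leaving out WT 1 gave 124 and 307, Hete KO 1 357 and 601, and WT 3 12 and 14. Without WT 1, WT 2 and Hete KO 2, the libraries rich in muscle transcripts, WT 3 alone stood for WT. The size of the 75 log2 fold changes, relative to the main fit, then had a median of 0.884. Without WT 2 and WT 3, rich in liver transcripts, WT 1 alone stood for WT, and WT 1 is itself rich in muscle transcripts. The same median was then 0.926. The part of muscle or liver transcripts in these changes was not tested. No gene named below as having risen or fallen passed the test under more than 12 of the 20 alternatives.

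**Figure D2:**
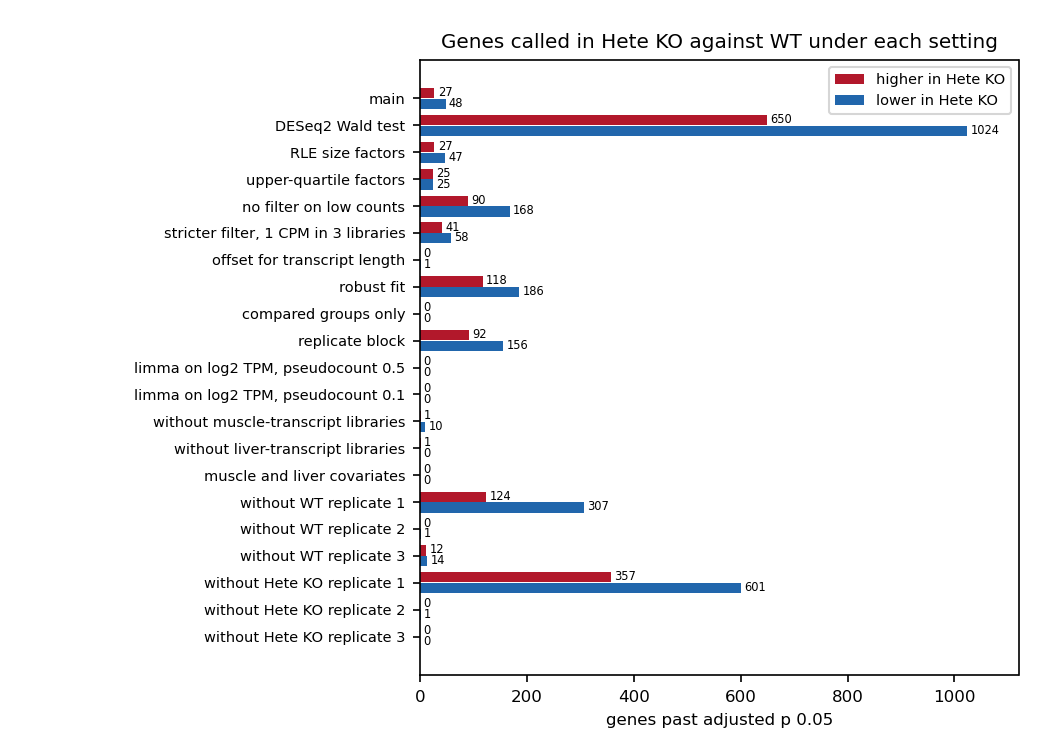
Bars give the number of genes past an adjusted p of 0.05 in Hete KO against WT under the main fit and under each of 20 alternatives, higher in red and lower in blue. The counts run from 0 in several fits to 650 higher and 1024 lower with DESeq2.

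Of the matrix genes, Hapln4, Bmp1, Pcolce, Fstl1, Adamts7, Plau and Lamb3 fell in Hete KO and Lama3 rose. Hapln4, a link protein that ties proteoglycans to hyaluronan (chromosome 8, 70083457 to 70090862), had 4.43, 6.09 and 5.56 CPM in WT and 0.705, 0.464 and 0.583 CPM in Hete KO. All Hete KO libraries lay far under the lowest WT library, and the log2 fold change of -3.18 (SE 0.301, edgeR adjusted p = 0.0191) had the smallest p of all genes. Its 3648-base coding transcript carried 99.1% of the gene's counts in the 6 libraries. Over the alternatives its log2 fold change lay between -3.32 and -1.94.

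Bmp1 and Pcolce act on the same step of collagen maturation: Bmp1 removes the C-terminal propeptide of procollagen, and Pcolce speeds that cut. Bmp1 had 62.1, 71.3 and 75.1 CPM in WT against 38.5, 34.1 and 37.1 CPM in Hete KO (log2 fold change -0.92, SE 0.105, edgeR adjusted p = 0.0251). Pcolce had 88.0, 124 and 84.3 CPM against 46.1, 47.8 and 51.9 CPM (-1.02, SE 0.144, adjusted p = 0.0332). Neither gene overlapped between the groups, and WT 2 stood above the other WT libraries for Pcolce. Of the 23 tested genes for collagen processing and crosslinking, these 2 passed the test, 15 were lower at an unadjusted p under 0.05 (12.1% of all genes were) and the median was -0.51, with -0.36 without the libraries rich in muscle transcripts.

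The collagens themselves did not pass the test: 0 of 19 were called, with 15 lower at an unadjusted p under 0.05, none higher and 13 with libraries that did not overlap (12.1% of all genes were lower in that way). Col4a1, a chain of basement membrane collagen, had 2635, 3130 and 2932 CPM in WT and 2025, 1176 and 1488 CPM in Hete KO (-0.89, edgeR adjusted p = 0.0606). Col1a2, of the fibrillar collagen that dominates connective tissue, had 751, 1161 and 876 CPM against 581, 361 and 442 CPM (-1.01, adjusted p = 0.0597). The summed level of the 19 collagens was 14147, 17431 and 15595 CPM in WT and 12060, 6128 and 8283 CPM in Hete KO. Hete KO 2, the library with the most muscle transcripts, was the lowest, and the part of muscle in this result was not tested. The median of the list was -0.77, and -0.51 without the muscle-rich libraries.

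Other matrix genes that fell were the metalloprotease Adamts7 (-1.16), the urokinase Plau, which activates plasminogen (-0.79), and Fstl1, a secreted glycoprotein of mesenchymal cells. Fstl1 had 306, 359 and 340 CPM in WT and 214, 160 and 178 CPM in Hete KO (-0.86, SE 0.135, edgeR adjusted p = 0.0426). Lama3 and Lamb3, chains of one epithelial type of laminin, moved apart. Lama3 rose from 6.47, 6.65 and 7.74 CPM to 13.9, 14.7 and 17.5 CPM (1.14, SE 0.160, adjusted p = 0.0332), while Lamb3 fell from 23.5, 25.0 and 25.4 CPM to 15.4, 9.99 and 12.1 CPM (-0.98, SE 0.169, adjusted p = 0.0488). Lamb3 overlaps 2 other tested genes on the opposite strand, Hsd11b1 and G0s2. Its log2 fold change ranged down to -0.27 under the alternatives.

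Most progenitor markers, 16 of 21, lay lower. Dpp4, a surface peptidase of interstitial progenitors, had 25.2, 36.2 and 43.5 CPM in WT and 17.1, 13.9 and 16.2 CPM in Hete KO (-1.15, SE 0.201, edgeR adjusted p = 0.0490). Pdgfra, the receptor that marks fibroblasts and adipocyte precursors, had 129, 137 and 128 CPM against 95.6, 87.2 and 93.5 CPM (-0.51, adjusted p = 0.0533). Pi16, a secreted protein of the same progenitors as Dpp4, had 20.8, 55.1 and 59.2 CPM against 7.97, 19.0 and 11.8 CPM (-1.80, adjusted p = 0.0694). For each of the 3 no library of 1 group reached into the other. In the list of 21, Dpp4 was the only call and 5 lay above 0. At an unadjusted p under 0.05, 13 were lower and 2 higher (12.1% and 9.71% of all genes were). The summed level ran from 1269 to 1415 CPM in WT and from 959 to 1083 CPM in Hete KO. The part of progenitor numbers in the matrix result was not tested.

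**Figure D3:**
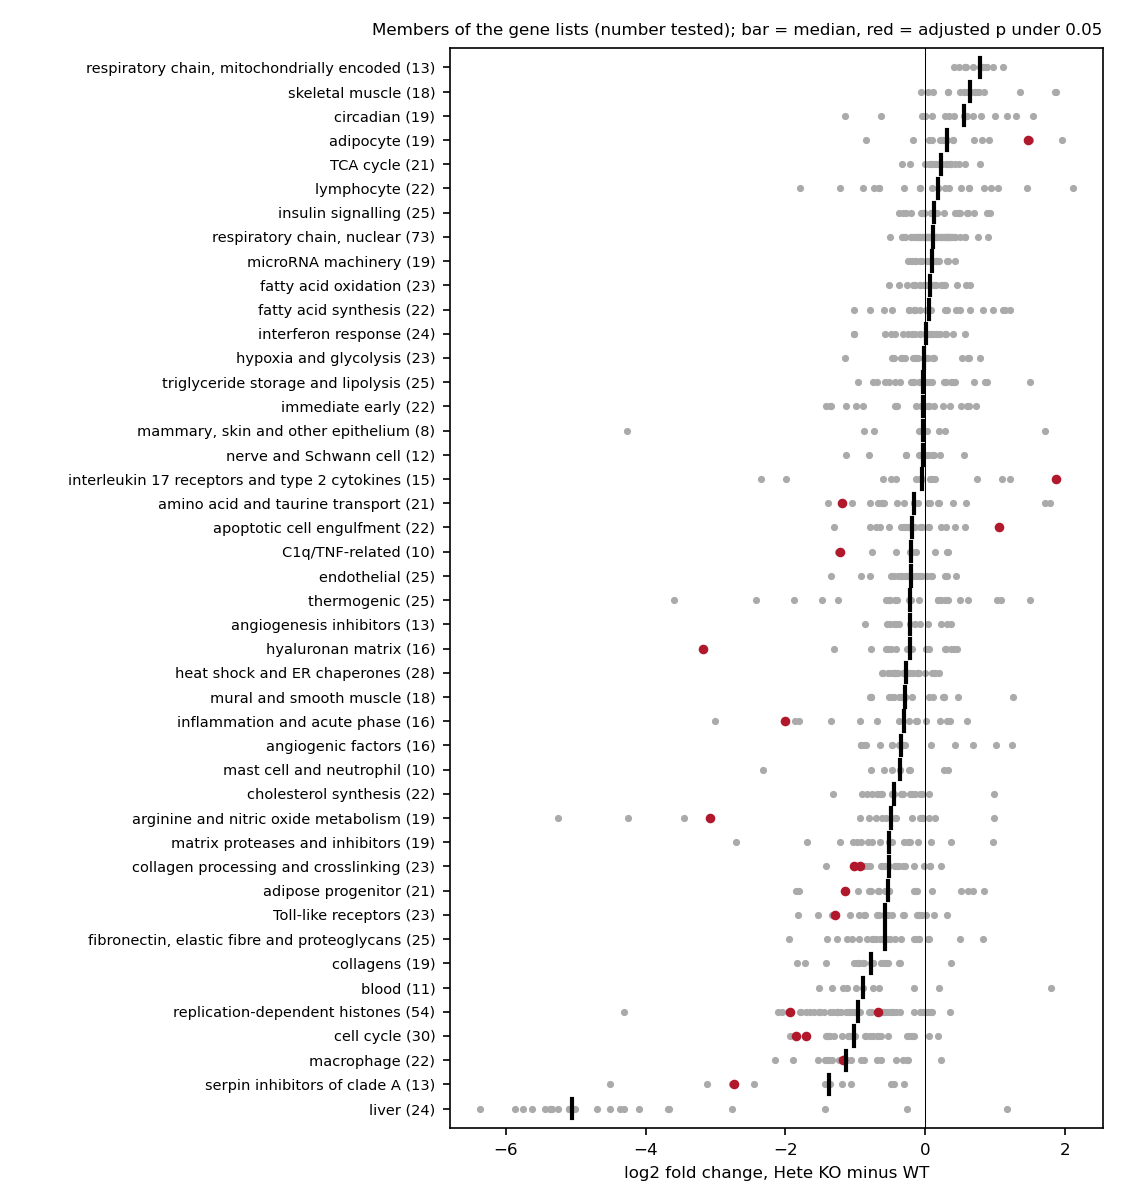
Rows are the 44 gene lists with the number of members tested, and points are the log2 fold changes, Hete KO minus WT, of single members (red past an adjusted p of 0.05, bar at the median). The medians of the macrophage, cell cycle, histone and collagen rows lie to the left of 0 and all 13 mitochondrially encoded genes to the right; the liver row, at a median of -5.05, holds the transcripts read mainly in WT 2 and WT 3.

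Most macrophage markers, 21 of 22, lay lower. C1qc, a chain of the complement protein C1q that tissue macrophages secrete, had 36.0, 44.0 and 27.2 CPM in WT and 18.6, 14.0 and 15.0 CPM in Hete KO (-1.17, SE 0.188, edgeR adjusted p = 0.0426). Its partner chains C1qa and C1qb had -1.17 and -1.39 and did not pass (adjusted p = 0.0591 and 0.0574). In all 3 chains the groups were apart.

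C1qc was the only call among 22 macrophage markers, of which 18 were lower at an unadjusted p under 0.05 (12.1% of all genes were). In 16 the Hete KO libraries lay below all WT libraries (also 12.1% of all genes). Members that did not pass but lay low were Trem2 (-1.89) and Itgax (-2.15), of lipid-associated macrophages, and Adgre1 (-1.14). Mertk, at 0.23, was the only one above 0. None of the markers was at 0 in any group, and their sum was 1857, 2061 and 1413 CPM in WT and 1136, 782 and 980 CPM in Hete KO. The median of -1.13 became -0.40 without the muscle-rich libraries, where WT 3 alone stands for WT, the WT library with the least macrophage signal. Blood markers were also lower: the 11 tested summed to 308, 333 and 294 CPM in WT and 136, 198 and 142 CPM in Hete KO, with 0 calls and a median of -0.89. The part of blood in these values was not tested.

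Hmox1 and Tfr2, which belong to none of the lists, also fell. Hmox1, the heme oxygenase that frees iron from heme, had 63.3, 59.5 and 43.3 CPM in WT and 23.5, 12.1 and 14.8 CPM in Hete KO (-1.72, SE 0.259, edgeR adjusted p = 0.0403). Tfr2, a transferrin receptor of iron sensing (chromosome 5, 137569840 to 137587481), had 20.8, 30.4 and 30.3 CPM against 6.97, 4.72 and 4.28 CPM (-2.35, SE 0.336, adjusted p = 0.0342). Hete KO 1 was the nearest to WT for both, at a level still well under the lowest WT library.  Grn, which encodes progranulin of lysosomes, fell by 0.80 on the log2 scale, Hexa, a subunit of a lysosomal hexosaminidase, by 0.77, and Mcoln2, a cation channel of endolysosomes, by 1.75. Srxn1, which repairs oxidized peroxiredoxins, fell by 0.66.

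In antigen presentation and innate sensing, H2-DMb1, which helps load peptides on class II molecules, had 22.9, 31.2 and 26.2 CPM in WT and 10.9, 4.89 and 7.78 CPM in Hete KO (-1.77, SE 0.280, edgeR adjusted p = 0.0426). Tril, an accessory protein of Toll-like receptors, had 46.5, 46.7 and 35.8 CPM against 21.1, 15.6 and 16.3 CPM, which did not overlap. It was the only call among 23 genes of the Toll-like receptor pathway. At an unadjusted p under 0.05, 12 were lower (12.1% of all genes were) and none was higher. The median of the list was -0.57. Without the muscle-rich libraries that median was -0.20. Interferon response genes stood level, with 0 of 24 called and a median of 0.02 that changed sign in 8 of the 20 alternatives.

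Haptoglobin, Serpina3m and F10, best known from the liver, fell too. Haptoglobin (Hp), which binds free hemoglobin and is also made by adipocytes, had 1593, 1849 and 2010 CPM in WT and 709, 249 and 406 CPM in Hete KO (-2.00, SE 0.317, edgeR adjusted p = 0.0426). No library of either group reached the other; the liver list took 0.0675% of the counts in WT 1 and more in WT 2 and WT 3, and its part in this result was not tested. Serpina3m, a serine protease inhibitor, had 5.35, 7.25 and 7.92 CPM against 1.30, 0.590 and 1.17 CPM, again without overlap. Its counts are uncertain, since the Serpina3 genes are near copies of each other and Serpina3m overlaps Serpina3k. Lcn2, a lipocalin of inflamed fat, had 2.55, 2.77 and 2.42 CPM against 0.297, 0.126 and 0.535 CPM and stayed just outside the threshold (-3.01, adjusted p = 0.0526). F10, coagulation factor X, had 9.40, 12.6 and 13.8 CPM against 3.23, 4.93 and 4.18 CPM (-1.54, adjusted p = 0.0475).

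Ass1 joins citrulline and aspartate in the making of arginine, and Slc25a13 (citrin) carries aspartate out of mitochondria. Ass1 (chromosome 2, 31470207 to 31520672) had 36.2, 48.0 and 43.3 CPM in WT and 6.86, 2.40 and 5.83 CPM in Hete KO, and 6.34, 4.71 and 5.71 CPM in Homo KO. The main transcript of 1696 bases held 96.7% of its counts. Its log2 fold change was between -3.35 and -2.75 over the alternatives, and it passed the test under 12 of the 20, more than any other of the 75. Slc25a13 had 3.67, 6.13 and 4.60 CPM against 0.964, 0.548 and 0.972 CPM (-2.53, SE 0.403, edgeR adjusted p = 0.0426). Of 19 genes for arginine and nitric oxide metabolism, Ass1 was the only call. At an unadjusted p under 0.05, 11 were lower (12.1% of all genes were). Arg1, Otc and Cps1 of the urea cycle were among these 11, and Arg1, at 0.710, 13.4 and 19.2 CPM in WT, was high where the liver transcripts were, in WT 2 and WT 3. Nos3, the endothelial nitric oxide synthase, had 54.7, 58.3 and 67.4 CPM in WT and 52.8, 39.6 and 36.4 CPM in Hete KO (-0.49, adjusted p = 0.122).

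Several genes of mitosis fell. Cenpe, the kinesin that moves chromosomes to the spindle equator, had 15.6, 17.2 and 11.1 CPM in WT and 3.67, 3.12 and 5.35 CPM in Hete KO. Aurkb, the kinase that corrects spindle attachments, had 4.43, 4.97 and 3.89 CPM against 1.30, 1.26 and 1.51 CPM (-1.70, SE 0.257, edgeR adjusted p = 0.0403). Spdl1 and Kntc1, which link the dynein motor to kinetochores, had 2.84, 4.41 and 2.99 against 0.964, 0.632 and 0.486 CPM and 4.89, 4.57 and 4.99 against 1.78, 1.14 and 1.85 CPM. The log2 fold changes of this last pair were -2.28 and -1.60 (adjusted p = 0.0427 and 0.0488). No library of either group overlapped the other in these 4 genes.

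Cenpe and Aurkb were the 2 calls among 30 cell cycle genes. At an unadjusted p under 0.05, 24 were lower (12.1% of all genes were) and none was higher. Mki67, the marker of dividing cells, was at -1.30 and Top2a at -1.36, while Tyms (0.19) and Birc5 (0.05) were the only members above 0. The 30 genes summed to 456, 464 and 340 CPM in WT and 271, 199 and 253 CPM in Hete KO, so WT 3 was the nearest to Hete KO, as it was for the macrophage markers. The median was -1.01, and -0.46 without the muscle-rich libraries. Which cells divided cannot be read from whole tissue.

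The 150 bases before the RefSeq start of 3 of the fallen mitotic genes (GRCm38.p6) are shown because they moved together and because the CCAAT box and the CHR element are well known in promoters of mitotic genes. Each reads 5′ to 3′ on the strand of its gene, Cenpe at chr3:135212413-135212562 (plus), Kntc1 at chr5:123749576-123749725 (plus) and Spdl1 at chr11:34833642-34833791 (minus), with matches to the motifs in capitals.
Cenpe: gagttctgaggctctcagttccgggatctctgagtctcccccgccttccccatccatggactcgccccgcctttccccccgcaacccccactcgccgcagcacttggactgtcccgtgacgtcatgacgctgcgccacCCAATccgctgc
Kntc1: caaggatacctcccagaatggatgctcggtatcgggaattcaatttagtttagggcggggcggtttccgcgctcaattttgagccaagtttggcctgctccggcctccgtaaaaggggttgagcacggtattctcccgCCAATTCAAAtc
Spdl1: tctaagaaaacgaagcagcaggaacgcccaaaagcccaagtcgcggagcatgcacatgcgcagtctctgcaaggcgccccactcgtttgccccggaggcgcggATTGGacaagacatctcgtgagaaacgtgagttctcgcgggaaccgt
CCAAT, or ATTGG on the other strand, was found once in each of the 3, and 24.5% of 32851 RefSeq promoter windows of the same length hold it. The CHR letters TTTGAA, or TTCAAA on the other strand, were found only in Kntc1, where they overlap the CCAAT box, against 9.07% of all windows, and the variant TTCGAA in none, against 0.67%. Such a match is a description of the letters and not a bound site.

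Of the histone genes of the kind transcribed in S phase, 2 fell. Hist1h2af had 8.64, 9.02 and 7.34 CPM in WT and 2.63, 1.43 and 2.48 CPM in Hete KO. Hist1h1e, a linker histone, had 39.2, 44.2 and 38.3 CPM against 27.0, 23.1 and 25.9 CPM (-0.68, SE 0.107, edgeR adjusted p = 0.0426). These were the 2 calls among 54 tested, where 23 were lower at an unadjusted p under 0.05 (12.1% of all genes were). In 26 the Hete KO libraries lay below all WT libraries (also 12.1% of all genes). The median was -0.95 and stayed between -1.05 and -0.70 over the alternatives. Counts of single histone genes are uncertain, as near-identical copies share reads, and their transcripts mostly lack a poly(A) tail.

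**Figure D4:**
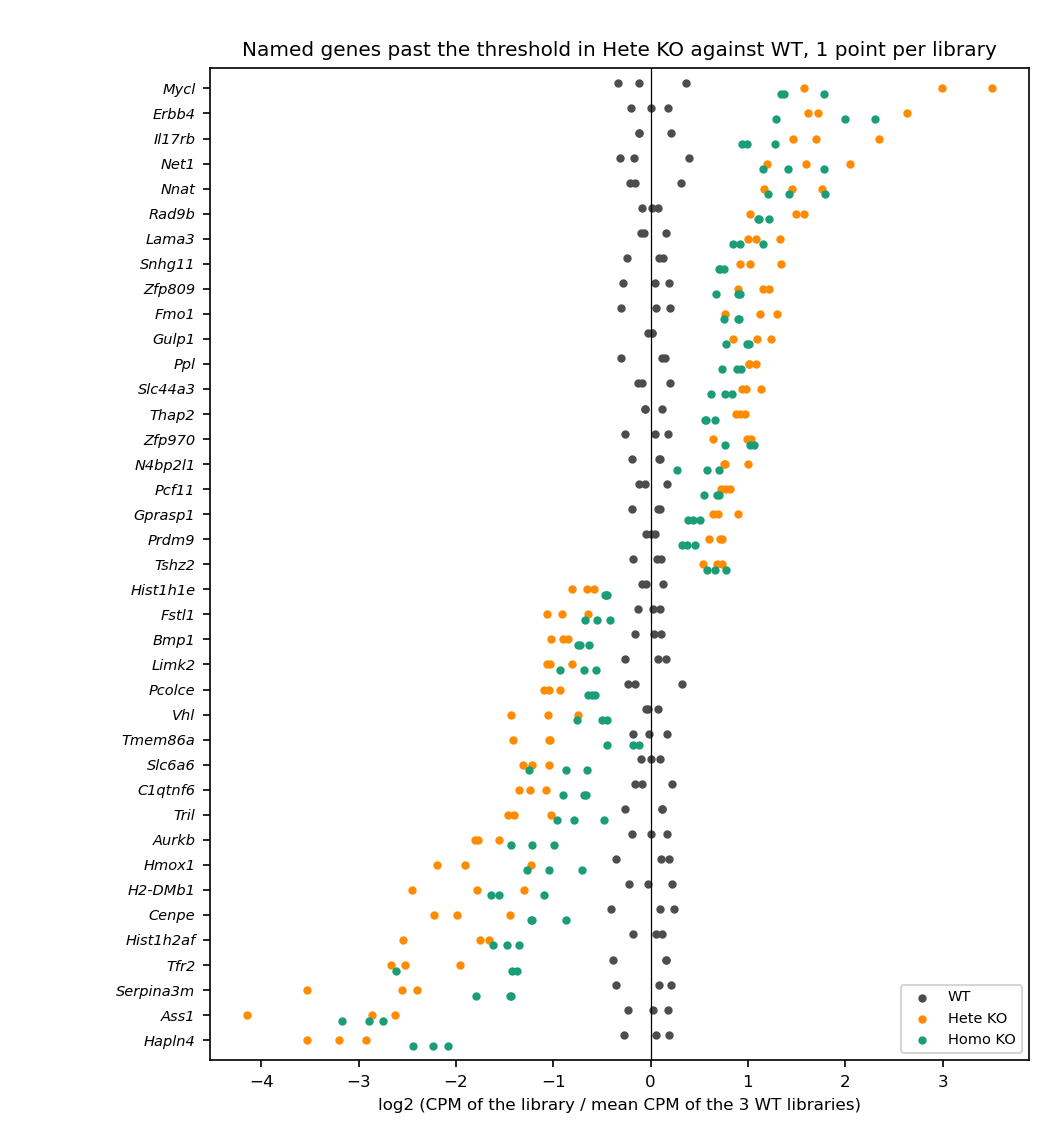
Rows are named genes past the threshold, and each point is 1 library as log2 of its CPM over the mean of the 3 WT libraries (WT grey, Hete KO orange, Homo KO green). No orange point reaches the grey points of its row.

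Among secreted factors and receptors, Erbb4, a receptor of the EGF receptor family, rose from 4.51, 5.09 and 3.92 CPM to 13.8, 28.1 and 14.8 CPM (2.07, SE 0.330, edgeR adjusted p = 0.0426). Epgn, a ligand of the EGF receptor, fell from 0.835, 1.96 and 1.21 CPM to 0.0742, 0.0421 and 0 CPM. The main Epgn transcript had 19.7, 49.0 and 34.0 estimated counts in WT and 2.0, 1.0 and 0 in Hete KO, so its fold change of -4.85 depends on the prior count. C1qtnf6, a secreted relative of adiponectin, had 12.5, 16.3 and 13.2 CPM against 6.64, 5.48 and 5.93 CPM, with no overlap. It was the only call of 10 such genes, whose median was -0.20. Sema3e, a semaphorin that repels endothelial sprouts, had 5.35, 6.81 and 7.84 CPM against 2.52, 3.12 and 2.72 CPM (-1.26, adjusted p = 0.0490).

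Il17rb and Chdh rose together and lie head to head. Il17rb, a receptor subunit for interleukin 25, had 1.75, 1.76 and 2.21 CPM in WT and 5.27, 9.69 and 6.22 CPM in Hete KO. Chdh, the mitochondrial choline dehydrogenase, had 38.7, 53.6 and 67.2 CPM against 122, 239 and 153 CPM (1.69, SE 0.290, edgeR adjusted p = 0.0488). In both, Hete KO 2 was the highest library, and Hete KO 1 the lowest of its group. The values in Homo KO were 4.62, 3.80 and 3.66 CPM for Il17rb and 90.5, 136 and 147 CPM for Chdh. Of 661 head-to-head pairs of tested coding genes with starts at most 1000 bases apart, this was the only one with both genes called, and 3 pairs had 1 called gene. Il17rb overlaps Actr8 and Chdh overlaps Cacna1d, each on the opposite strand. The 2094-base coding transcript of Il17rb, with 20.3% of the gene's counts, had 22.4, 0 and 0 estimated counts in WT and 37.9, 37.5 and 33.6 in Hete KO. A 1533-base transcript not annotated as coding held more, 26.9%. It had 5.9, 20.4 and 34.6 in WT and 28.5, 80.9 and 4.1 in Hete KO, so that the groups overlapped.

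The stretch between both gene starts is printed because the pair moved together. It covers chr14:30008897-30009022 (GRCm38.p6, plus strand, from the RefSeq promoter of Chdh), with Il17rb leaving to the left and Chdh to the right, and CG dinucleotides in capitals.
Il17rb-Chdh: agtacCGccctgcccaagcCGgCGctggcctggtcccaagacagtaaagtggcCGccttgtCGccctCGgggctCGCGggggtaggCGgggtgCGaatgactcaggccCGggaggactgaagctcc
Its 126 bases are 69.8% G and C and hold 11 CG dinucleotides; 21.6% of the 32851 RefSeq promoter windows of that length hold as many or more, and the median is 3. Il17rb was the only call among 15 tested interleukin 17 receptor and type 2 cytokine genes, of which 7 lay above 0 and 8 below. Il13ra2, a decoy receptor for interleukin 13, had 5.80, 5.69 and 7.99 CPM in WT and 1.85, 0.885 and 1.07 CPM in Hete KO (-2.34, adjusted p = 0.0606).

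Most adipocyte genes lay higher, 17 of 19. Nnat, which encodes neuronatin of the endoplasmic reticulum and overlaps Blcap on the opposite strand, had 172, 165 and 238 CPM in WT and 430, 649 and 524 CPM in Hete KO. It was the only call among 19 adipocyte markers, where 8 were higher at an unadjusted p under 0.05 (9.71% of all genes were), and the median was 0.32. Pck1, of glycerol synthesis for triglycerides, had 635, 1367 and 1468 CPM against 2352, 4071 and 3273 CPM (1.48, edgeR adjusted p = 0.0654), and Adrb3, the adrenergic receptor of fat, 21.4, 46.1 and 57.5 CPM against 105, 139 and 111 CPM (1.50, adjusted p = 0.0620). Both groups were apart in these genes, but the tests did not pass. The summed adipocyte markers were 23026, 21655 and 30244 CPM in WT and 29325, 29659 and 32491 CPM in Hete KO, so that WT 3 overlapped Hete KO, and the median shrank to 0.09 without the muscle-rich libraries.

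Adipoq, which encodes adiponectin, had 942, 903 and 1517 CPM in WT and 1451, 1216 and 1524 CPM in Hete KO (0.32, SE 0.206, edgeR adjusted p = 0.404), and the difference was -0.019 without the muscle-rich libraries. Lep, which encodes leptin, went the other way, with 6468, 5749 and 6948 CPM against 4131, 2340 and 4167 CPM (-0.85, SE 0.211, adjusted p = 0.0767). Leptin libraries did not overlap, and the gene passed with DESeq2 (adjusted p = 0.000803) and without Hete KO 1 (edgeR adjusted p = 0.0497). In the list of 25 insulin signalling genes 0 were called, 16 lay above 0 and 9 below, and the median was 0.14. At an unadjusted p under 0.05, 10 were higher and 1 was lower (9.71% and 12.1% of all genes were). Among the 10 higher were Irs1 (0.93) and Pde3b (0.88).

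Enzymes of lipid synthesis did not pass the test. Scd1, which desaturates fatty acids, had 28574, 33150 and 51184 CPM in WT and 70108, 74995 and 76591 CPM in Hete KO (0.97, edgeR adjusted p = 0.112). Acaca, which makes malonyl-CoA, had 431, 530 and 583 CPM against 992, 1361 and 1047 CPM (1.14, adjusted p = 0.0666), and Thrsp, a regulator of lipogenesis, 137, 171 and 239 CPM against 410, 373 and 401 CPM (1.12, adjusted p = 0.0654). The groups were apart in each of the 3. Scd1 made up most of the summed level of the fatty acid synthesis list. That sum was 36369, 42744 and 62085 CPM in WT and 82266, 85820 and 86318 CPM in Hete KO. Of the 22 fatty acid synthesis genes 12 lay above 0 and 10 below, 0 were called, and the median of 0.05 changed sign in 4 of the 20 alternatives. Cholesterol synthesis lay lower, with 20 of 22 genes below 0 (8729 of all 17968 genes were), 0 called and a median of -0.45. At an unadjusted p under 0.05, 10 were lower and 1 was higher (12.1% and 9.71% of all genes were).

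All 13 protein-coding genes of the mitochondrial genome lay higher, with none past the test. At an unadjusted p under 0.05 there were 11 (9.71% of all genes were higher). In 12 the libraries did not overlap (12.6% of all genes were higher in that way). mt-Nd4, of respiratory complex I, had 2602, 989 and 2120 CPM in WT and 3406, 4468 and 4461 CPM in Hete KO (1.11, edgeR adjusted p = 0.0889). The sum of the 13 was 30193, 19381 and 29272 CPM in WT and 36193, 45250 and 42868 CPM in Hete KO. Their median of 0.78 was 0.54 without the muscle-rich libraries, where WT 3 is compared with Hete KO 1 and 3. The 73 nuclear-encoded subunits of the same complexes had a median of 0.11 and 0 calls, and that median turned to -0.09 without the muscle-rich libraries. Hete KO 2, with the most muscle transcripts, had the highest sum, while WT 2, also rich in them, had the lowest; the part of muscle in this result was not tested.

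**Figure D5:**
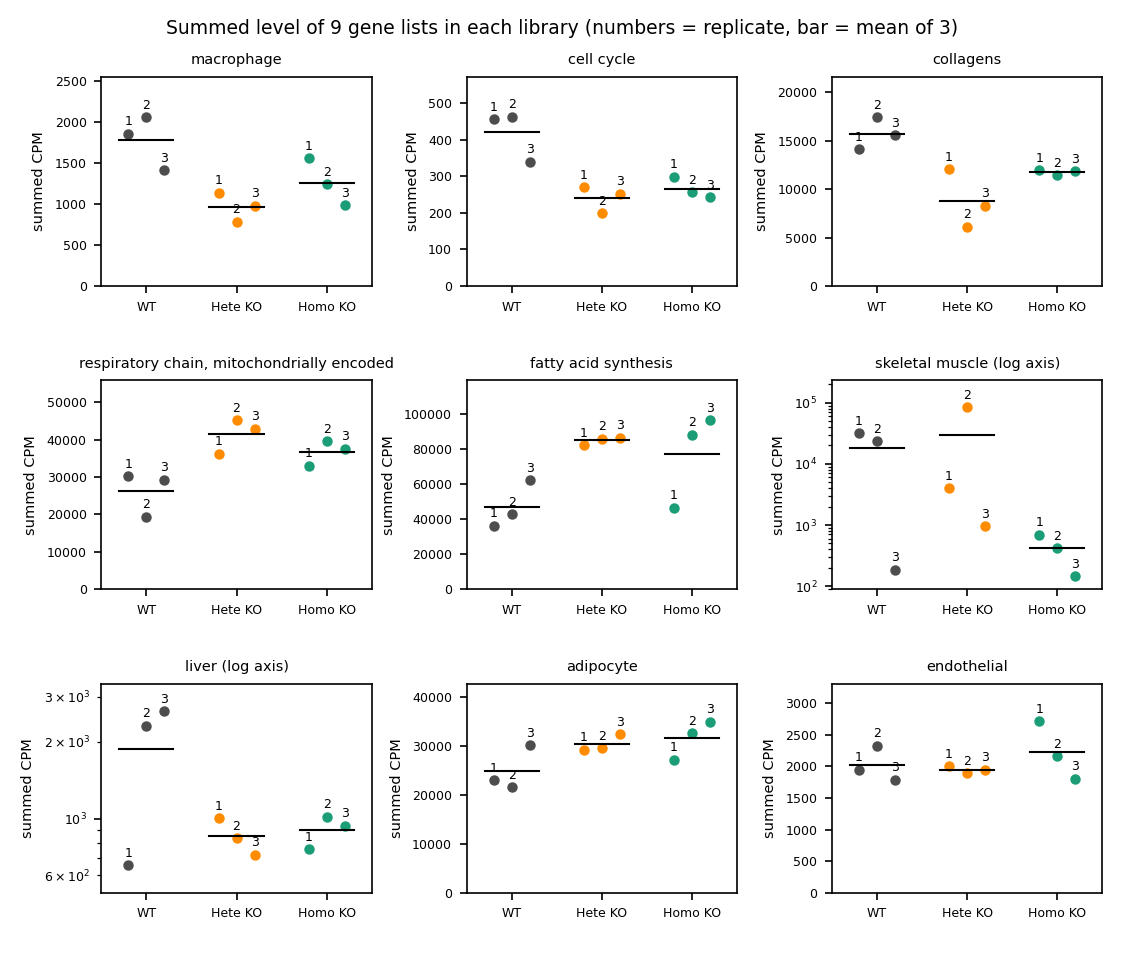
Each panel gives the summed CPM of a gene list in the 9 libraries, with the replicate number above each point and a bar at the mean of 3; the skeletal muscle and liver panels have log axes. Macrophage, cell cycle and collagen sums are lower in all 3 Hete KO libraries than in all 3 WT libraries, and the sums of mitochondrially encoded and fatty acid synthesis genes are higher. Most of the fatty acid synthesis sum is the single gene Scd1, and the median log2 fold change of that list was 0.05. Muscle and liver transcripts split the WT libraries, and muscle transcripts also split those of Hete KO, where Hete KO 2 had the highest muscle sum of all libraries.

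Thermogenic genes gave no direction. Ucp1, the uncoupling protein of brown and beige fat, had 6.01, 168 and 1.14 CPM in WT and 2.45, 29.2 and 0.972 CPM in Hete KO, so that library 2 was the high one in both groups. The log2 fold change of -2.42 (SE 1.60, edgeR adjusted p = 0.412) turned to 1.64 when WT 2 was left out. For Cidea, which coats lipid droplets there, the levels were 3.30, 27.4 and 7.67 CPM against 11.2, 26.8 and 10.4 CPM (0.34, adjusted p = 0.819). The coactivator Ppargc1a was apart, with 14.4, 11.1 and 10.1 CPM against 19.3, 35.6 and 20.8 CPM, and did not pass (1.09, SE 0.260, adjusted p = 0.0721), though it did with DESeq2 (adjusted p = 0.00149) and without Hete KO 1 (edgeR adjusted p = 0.0354). Of 25 thermogenic genes 0 were called, and the median of -0.21 turned to 0.34 without the liver-rich libraries, where WT 1 alone stands for WT.

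The 25 markers of endothelial cells, where the knockout is placed, showed no call. Since 0.417% of all genes were called, 0 calls in a list of this size say little. Pecam1, a junction protein of endothelium, had 196, 221 and 175 CPM in WT and 184, 167 and 175 CPM in Hete KO (-0.17, SE 0.142, edgeR adjusted p = 0.525). Of 25 endothelial markers 5 were lower and 2 higher at an unadjusted p under 0.05 (12.1% and 9.71% of all genes were). The sums of 1947, 2326 and 1789 CPM in WT and 2006, 1889 and 1944 CPM in Hete KO overlapped. The lowest p in the list was that of Sox18, a transcription factor of vessel growth, with 10.1, 20.6 and 12.3 CPM against 4.75, 6.41 and 5.74 CPM (-1.35, adjusted p = 0.0619). The median of -0.20 turned to 0.05 without the muscle-rich libraries.

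None of the 16 angiogenic factors and 13 angiogenesis inhibitors listed passed the test. Thbs1, an inhibitor of angiogenesis, had 150, 123 and 67.2 CPM in WT and 63.0, 102 and 74.6 CPM in Hete KO (-0.51, SE 0.299, edgeR adjusted p = 0.358), and 0.041 without the muscle-rich libraries. Vegfa, the main endothelial growth factor, had 195, 212 and 196 CPM against 270, 334 and 209 CPM (0.43, SE 0.155, adjusted p = 0.150). Vegfb, which adipocytes and muscle secrete, had 78.1, 69.7 and 88.9 CPM against 113, 126 and 143 CPM (0.69, adjusted p = 0.0606). Of the 3, only Vegfb had groups that did not overlap. Among 16 angiogenic factors 0 were called, with 4 higher and 8 lower at an unadjusted p under 0.05 (9.71% and 12.1% of all genes were).

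The calls also included transporters and enzymes of small molecules. Slc6a6, the taurine transporter, had 359, 412 and 386 CPM in WT and 166, 188 and 155 CPM in Hete KO, and 244, 211 and 162 CPM in Homo KO. It was the only call among 21 amino acid and taurine transporters, of which 8 lay above 0 and 13 below. Slc1a3, which takes up glutamate and aspartate, had 93.5, 77.4 and 157 CPM against 229, 489 and 364 CPM (1.72, edgeR adjusted p = 0.0526). Slc44a3, of the choline transporter-like family, rose from 15.8, 15.4 and 19.3 CPM to 32.3, 37.0 and 33.2 CPM (1.02, SE 0.128, adjusted p = 0.0254). Fmo1, a flavin monooxygenase of fat, rose from 114, 88.9 and 126 CPM to 186, 238 and 269 CPM (1.08, SE 0.165, adjusted p = 0.0426). Tmem86a, which breaks down lysoplasmalogens, fell from 14.8, 18.9 and 16.6 CPM to 8.20, 8.13 and 6.27 CPM (-1.15, SE 0.171, adjusted p = 0.0403), and in Homo KO it stood at 15.4, 14.8 and 12.3 CPM. None of these 4 called genes overlapped between Hete KO and WT.

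Regulators of transcription and of signalling were called in both directions. Mycl, of the MYC family, rose from 2.76, 2.36 and 3.85 CPM to 8.94, 34.0 and 23.8 CPM (2.89, SE 0.433, edgeR adjusted p = 0.0403). Hete KO 1 stood at a level far below the other Hete KO libraries but above all of WT, and Homo KO had 7.75, 7.56 and 10.3 CPM. Net1, an exchange factor that activates RhoA, rose from 107, 119 and 176 CPM to 307, 554 and 405 CPM (1.66, SE 0.263, adjusted p = 0.0426), and Limk2, a kinase of the actin-severing protein cofilin, fell by 0.97 on the log2 scale. Vhl, the part of a ubiquitin ligase that binds hypoxia-inducible factors, fell from 77.6, 71.2 and 72.6 CPM to 44.1, 27.4 and 35.6 CPM (-1.05, SE 0.164, adjusted p = 0.0426). Of 23 genes of hypoxia and glycolysis 0 were called, and their median of -0.02 changed sign in 6 of the 20 alternatives. Gulp1, an adaptor for the uptake of dying cells, had 13.1, 12.7 and 13.1 CPM in WT against 23.3, 27.7 and 30.6 CPM. It was the only call among 22 engulfment genes (0.417% of all genes were called), and most of that list went the other way. Of the 22, 7 lay above 0 and 15 below, with a median of -0.19. At an unadjusted p under 0.05, 1 was higher and 5 were lower (9.71% and 12.1% of all genes were).

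The other genes that rose included Pcf11. Pcf11, which ends transcription at poly(A) sites, had 82.0, 67.3 and 70.3 CPM in WT and 121, 129 and 124 CPM in Hete KO (0.77, SE 0.104, edgeR adjusted p = 0.0325). Thap2, a zinc finger protein, had 15.2, 13.4 and 13.4 CPM against 25.7, 26.6 and 27.4 CPM, and Zfp809, which silences retroviral elements, 25.4, 18.3 and 23.0 CPM against 41.4, 51.5 and 49.7 CPM (0.92 and 1.10, adjusted p = 0.0251 and 0.0325). Snhg11, a host transcript of small nucleolar RNAs, rose by 1.10, and Rad9b, of a DNA damage clamp, by 1.38. The 2371-base coding transcript of Rad9b had 0, 0 and 27.3 estimated counts in WT and 91.2, 89.5 and 83.0 in Hete KO. Its mean share of the gene's counts was 10.72% in WT and 45.12% in Hete KO. The 1631-base coding transcript went the other way, with a mean share of 51.18% in WT and 11.97% in Hete KO. Whether the estimates shifted counts between these transcripts was not tested. Prdm9, a histone methyltransferase known from meiosis, was read in fat at 15.7, 15.2 and 16.2 CPM in WT and 23.7, 25.7 and 26.1 CPM in Hete KO. The remaining risen genes of the rule were Ppl, Zfp970, N4bp2l1, Gprasp1 and Tshz2, at 0.65 to 1.04.

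Hete KO was also set against Homo KO, to ask where 1 and 2 lost alleles differ. No gene passed edgeR's test (0 of 17968), 978 had an unadjusted p under 0.05 (5.44%), and DESeq2 called 4 higher and 4 lower. The smallest adjusted p of any gene was 0.899. Both comparisons use the Hete KO libraries. Hapln4 had 1.27, 1.14 and 0.986 CPM in Homo KO, Serpina3m 2.54, 2.52 and 1.97 CPM, Bmp1 44.8, 41.4 and 41.9 CPM, and Nnat 442, 513 and 665 CPM. For Hapln4, Serpina3m and Bmp1 the Homo KO libraries lay between those of Hete KO and WT, and for Nnat they overlapped Hete KO. These genes were named for their large difference between Hete KO and WT. The place of Homo KO is therefore no test of an effect of allele number.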

How the data were processed

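RNA of subcutaneous fat was sequenced in 9 libraries, 3 a group. Per the file headers, each deposited file gives for every transcript an estimated count and a TPM value, both made by the authors. The submitters' processing notes name mm10, and the quantifier is not named in these sources. Of 113193 transcripts per file, 98.38% were matched to genes of GENCODE M21, and the estimated counts were summed per gene and rounded. The unmatched rest held 0.581 to 1.06% of the counts. Depth was 20843427 to 28252001 estimated counts a library.

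Genes were tested with edgeR 4.0.16 (R 4.3.3) in 1 quasi-likelihood fit to all 9 libraries, with 1 coefficient a group, TMM factors, edgeR's default filter on low counts (17968 genes left) and Benjamini-Hochberg adjustment at 0.05. That fit shares the spread of the 3 groups over 6 residual degrees of freedom. The SE is the size of the log2 fold change over the root of its F. A prior count of 0.125 enters the fold changes. The script was tested on simulated data. The check of replicates found no pair alike within sampling noise.

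Genes were named by rule: Ago1 and 8 others fixed by name, up to 20 called genes in each direction with the smallest p and a mean of at least 1 CPM, and up to 4 members per list with the smallest p, without predicted genes and pseudogenes. A gene that the rule takes is not reported here. The comparison, the 44 lists and the rule were chosen with earlier results of these data known. Alternatives were DESeq2 1.42.0, other size factors, filters, a length offset, a robust fit, the compared groups only, a replicate block, limma 3.58.1 on log2 TPM, covariates for muscle and liver transcripts, and leaving out libraries. Sequences are from RefSeq (GRCm38.p6), where Cenpe, Kntc1, Spdl1 and Chdh were found and Aurkb, Hist1h2af and Hist1h1e had no entry. Figures were drawn with matplotlib 3.10.9.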

Additional observations from a re-analysis of the deposited data

How the results depend on the processing

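The 75 calls use an estimate of the spread shared over 3 groups of 3 libraries, and muscle and liver transcripts differ within groups. Against 27 genes higher and 48 lower, DESeq2 gave 650 and 1024, upper-quartile factors 25 and 25, no filter on low counts 90 and 168, a stricter filter 41 and 58, a length offset 0 and 1, the robust fit 118 and 186, the compared groups only 0 and 0, limma on log2 TPM 0 and 0 with either pseudocount (2793 and 2754 genes at an unadjusted p under 0.05), no muscle-rich libraries 1 and 10, no liver-rich libraries 1 and 0, and covariates for both 0 and 0 (1973 genes at an unadjusted p under 0.05). Leaving out 1 library gave 0 to 357 higher and 0 to 601 lower. Without the muscle-rich libraries WT 3 alone stood for WT, and without the liver-rich ones WT 1 alone, so those counts rest on a single WT library. The cause of the differences between these fits was not tested. Homo KO against Hete KO had 4 higher and 4 lower with DESeq2 and 0 otherwise.

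Directions reversed for Thbs1 (0.041), Pecam1 (0.044) and Adipoq (-0.019) without the muscle-rich libraries. Ucp1 had 0.60 there, 0.86 without the liver-rich libraries, 0.64 with the covariates, and -5.08 to 1.64 when 1 library was left out. Cidea ran from -0.26 to 1.57 in the same way and was -0.09 without WT 1. Of the 44 list medians 26 kept their sign in all 20 alternatives.

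With the replicate block 92 genes were higher and 156 lower. The numbers were not taken as pairs in the main fit. The deviations of WT and Hete KO libraries of the same number correlated at -0.00335, 0.223 and 0.458. Among the Hete KO libraries, WT 2 and WT 3 were closest to the one of their own number, while WT 1 was closest to Hete KO 2 (0.251). Whether the numbers mark pairs cannot be told from these values.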

Other observations

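Clock genes had a median log2 fold change of 0.55 over 19 members in Hete KO against WT, with none past edgeR's adjusted threshold. At an unadjusted p under 0.05, 9 were higher and 1 lower (9.71% and 12.1% of all genes were). The median was 0.21 without the muscle-rich libraries, and 3 of the 19 were higher with libraries that did not overlap, beside 12.6% of all genes. Hlf, a transcription factor driven by the clock, was at 1.17. The time of day of tissue collection is not stated in the labels. Chaperones of the heat shock and endoplasmic reticulum kind had 24 of 28 members below 0 (8729 of all 17968 genes were), none called and a median of -0.27. At an unadjusted p under 0.05, 10 were lower (12.1% of all genes were) and none was higher.

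Of the 75 called genes, 3 pairs lay within 100000 bases of each other. Besides Il17rb and Chdh these were Tfr2 and Pcolce, 17621 bases apart with 1 tested coding gene between them, Mospd3, and Hist1h2af and Hist1h1e, 86324 bases apart with 11 between them. Olfr541, an olfactory receptor gene, was called higher on very few counts: it had 0, 0 and 0.0357 CPM in WT, the last being a single read, and 1.33, 1.64 and 0.583 CPM in Hete KO. Lama3 was read in part from a shorter transcript of 5551 bases, with 9.9, 0 and 15.4 estimated counts in WT and 19.4, 99.9 and 90.2 in Hete KO, so that Hete KO 1 was near WT.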
